A study of Mus musculus with 2 samples.

Results

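The genes described here are the myeloid colony-stimulating factor genes and their receptors that were read in GR1+ cells of mouse 4T1 tumors. They were chosen by name, and all 6 (Csf1, Csf1r, Csf2ra, Csf2rb, Csf2rb2 and Csf3r) were found among the 32285 genes listed in each of 2 single-cell libraries. 4T1 is a mammary carcinoma line of BALB/c mice. 4T1P is its parental line, whose tumors did not respond to PD-1 blockade, and 4T1M is a multiclonal line made from it by mutagenesis with MNNG, whose tumors responded. Neither label names a treatment, so the libraries compare GR1+ cells of tumors from the 2 lines, both grown in BALB/c mice of 6 to 8 weeks (the age in the sample labels). GR1+ cells were enriched on magnetic beads from single cell suspensions, and 5 mice were pooled per library by the series record, a number that differs from the one in a legend of the paper. GR1 is an epitope of Ly6G and Ly6C, so that the beads take neutrophils and monocytic cells together. With 1 pooled library per line there is no spread between animals, no test was run, and each interval given is a 95% interval of counting error alone.

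The colony-stimulating factors drive the growth, survival and activation of myeloid cells. CSF1, also named M-CSF, and IL-34 bind the receptor tyrosine kinase encoded by Csf1r, on which monocytes and macrophages depend. GM-CSF, encoded by Csf2, binds an alpha chain encoded by Csf2ra that signals through the common beta chain encoded by Csf2rb, and Csf2rb2 encodes a second mouse beta chain that serves the receptor for IL-3. G-CSF, encoded by Csf3, binds the receptor encoded by Csf3r and drives granulopoiesis, and tumor-derived G-CSF is well known in 4T1-bearing mice.

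Barcodes passed with 500 to 5000 genes and no more than 10% of UMIs from mitochondrial genes, which left 1726 cells with 12948585 UMIs in 4T1P and 3461 cells with 19302483 UMIs in 4T1M. Neutrophils were cells with at least 1.5% of their UMIs from S100a8 and S100a9 and under 0.5% from C1qa, C1qb, C1qc and Apoe, which gave 612 cells in 4T1P and 1686 in 4T1M. Macrophages were cells under 1.5% for S100a8 and S100a9 and with at least 0.3% of UMIs from C1qa, C1qb, C1qc, Apoe, Cd68 and Fn1, which gave 793 and 955 cells. Outside of both gates were 64 cells with both signatures, 123 T or NK cells, 54 B cells and 900 further cells. Neutrophils were shallow, with a median of 3054.5 UMIs per cell in 4T1P and 2957.5 in 4T1M, against 9626 and 9437 in macrophages. The gate matched markers that it did not use, since Cxcr2 stood at 325 and 377 CPM in neutrophils against 2.53 and 7.81 CPM in macrophages, and Mrc1 at 9.19 and 6.69 CPM in neutrophils against 674 and 338 CPM in macrophages (4T1P and 4T1M). Marker lists of other immune cells were low in both classes. The summed level was at most 31.6 CPM for B cells in neutrophils and 36.9 CPM in macrophages. It was at most 30.8 and 7.92 CPM for T and NK cells and 15.6 and 10.7 CPM for dendritic cells. For eosinophils it was at most 12.5 and 1.63 CPM, and for basophils or mast cells 0.152 and 0 CPM. The tumor or epithelial list summed to 76.3 CPM in neutrophils of 4T1P and 18.4 CPM in those of 4T1M. In macrophages that list stood at 31.1 and 36.03 CPM. The endothelial list stood at 20.8 and 30.9 CPM in neutrophils and at 29.6 and 40.3 CPM in macrophages. The libraries shared 5 barcodes, 3 of them among retained cells. CPM are the UMIs of a gene per 1000000 UMIs, both added up over the cells of 1 class and library. Gates and genes were read in the same cells, so differences between the classes are a description.

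In brief, Csf1 and Csf3r transcripts lay mostly in neutrophils, Csf1r transcripts in macrophages, and those of Csf2ra, Csf2rb and Csf2rb2 in both classes. Csf1 was past 2 fold higher in neutrophils in both libraries, as was Csf3r, while Csf1r was past 2 fold higher in macrophages. Of all 11501 genes with enough UMIs, 9.32% were past 2 fold higher in neutrophils in both libraries and 46.7% in macrophages, so 2 of the 6 genes fell on the rarer side and 1 on the more common one. The median log2 ratio of neutrophils over macrophages over all these genes was -1.12 in 4T1P and -1.08 in 4T1M. S100a8 and S100a9 alone stood at 65996 and 92881 CPM in neutrophils of 4T1P and at 56012 and 73538 CPM in those of 4T1M.

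**Figure D1:**
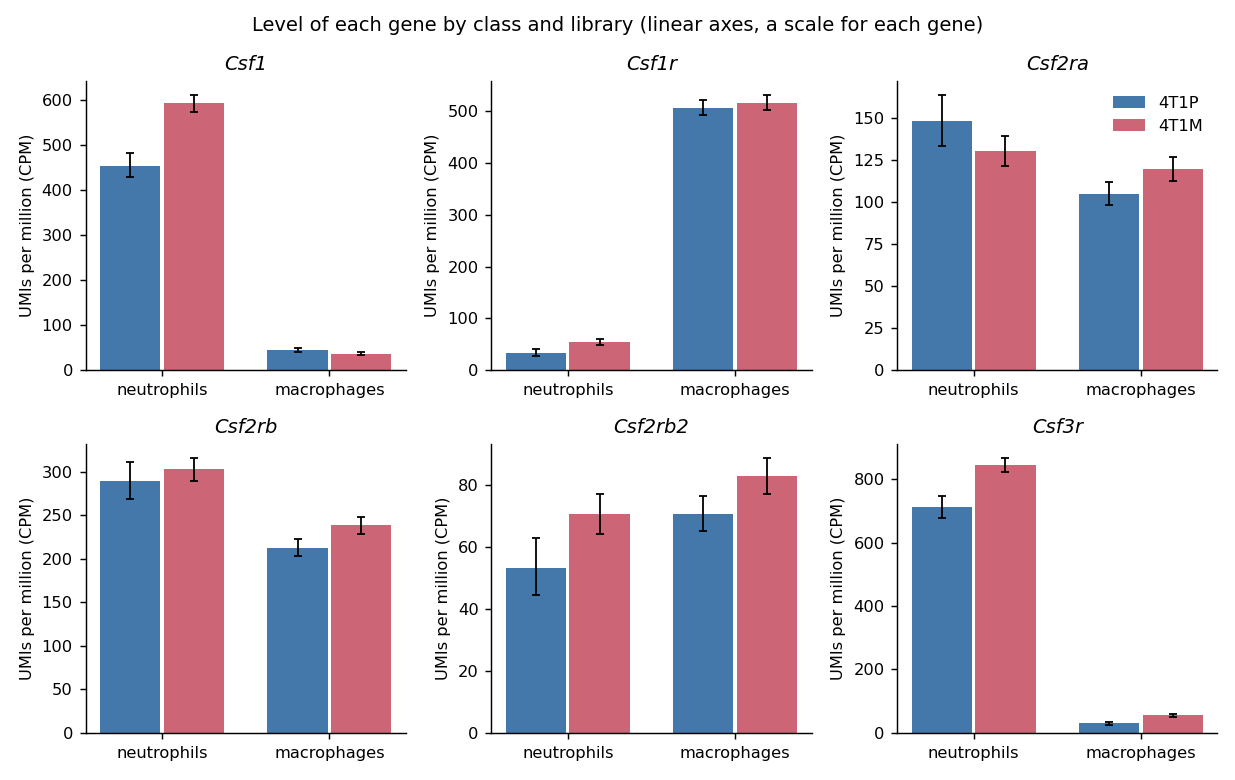
UMIs per 1000000 UMIs (CPM, linear axes, each gene on its own scale) of the 6 genes in neutrophils and macrophages of the 4T1P (blue) and 4T1M (red) libraries; bars are sums over cells and error bars are 95% Poisson intervals for counting error. Csf1 and Csf3r stand high in neutrophils, Csf1r in macrophages, and Csf2ra, Csf2rb and Csf2rb2 lie within 1.5 fold of each other between the classes.

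The bases before the transcription start are given for the ligand gene and for 2 receptor genes with different class patterns. Csf1 lies on chromosome 3 (107741048 to 107760469, minus strand), Csf3r on chromosome 4 (126024550 to 126044440, plus strand) and Csf2rb2 on chromosome 15 (78282507 to 78305721, minus strand), in GRCm38 with GENCODE M21. The sequences are from RefSeq (GRCm38.p6), 5′ to 3′ on the strand of the gene, at chr3:107760470-107760719, chr4:126024409-126024549 and chr15:78305722-78305971. That of Csf3r stops where the GENCODE gene begins. Capitals mark the core GAGGAA of PU.1, the myeloid ETS factor encoded by Spi1, on either strand.
Csf1: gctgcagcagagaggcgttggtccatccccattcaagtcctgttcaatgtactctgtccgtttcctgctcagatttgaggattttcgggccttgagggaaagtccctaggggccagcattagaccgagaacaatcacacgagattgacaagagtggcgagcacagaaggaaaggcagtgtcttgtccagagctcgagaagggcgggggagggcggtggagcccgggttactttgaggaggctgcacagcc
Csf3r: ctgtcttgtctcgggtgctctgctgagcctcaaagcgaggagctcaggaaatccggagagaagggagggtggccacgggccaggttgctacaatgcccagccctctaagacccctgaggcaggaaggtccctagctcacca
Csf2rb2: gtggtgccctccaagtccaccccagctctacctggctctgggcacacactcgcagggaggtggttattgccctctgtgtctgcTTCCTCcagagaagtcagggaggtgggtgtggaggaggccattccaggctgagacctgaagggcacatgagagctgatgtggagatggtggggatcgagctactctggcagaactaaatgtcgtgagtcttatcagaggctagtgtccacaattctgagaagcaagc

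In the full 250 bases before the RefSeq start, GAGGAA was found 1 time each for Csf3r and Csf2rb2, 2 times for Csf2ra and 0 times for Csf1, on either strand. The match of Csf3r lay past the GENCODE start of the gene, outside of the printed bases, and those of Csf2ra also reached past that start. Of all 32851 RefSeq promoters of that length, 23.3% held it. TTGCNNAA, a C/EBP core, was found 0 times in all 4 windows (9.56% of all promoters) and TGANTCA, an AP-1 core, also 0 times (6.75%). The motifs did not overlap each other. A match of letters is a description and not a binding site, and Csf2rb had no entry.

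Csf1, the ligand, was read mostly in neutrophils. In neutrophils it stood at 455 CPM in 4T1P (Poisson interval 429 to 482, 1139 UMIs) and 594 CPM in 4T1M (575 to 613, 3906 UMIs). In macrophages it stood at 44.6 CPM (40.3 to 49.2, 388 UMIs) and 36.6 CPM (32.8 to 40.7, 337 UMIs). Neutrophils were thus 10.2-fold higher in 4T1P and 16.2-fold higher in 4T1M, on the CPM scale. Per cell the gap was smaller, with 186 and 232 UMIs per 100 neutrophils against 48.9 and 35.3 per 100 macrophages. T and NK cells held 13 and 21 Csf1 UMIs and B cells 0 and 2. By CPM, T and NK cells stood at 34.3 (18.3 to 58.7) and 57.2 (35.4 to 87.5), near the level of macrophages. The further cells outside the gates stood at 182 and 423 CPM, between macrophages and neutrophils. When every cell was thinned to 1000 UMIs, Csf1 was detected in 30.6% of neutrophils of 4T1P (26.9% to 34.4%) and 37.3% in 4T1M (35.0% to 39.6%), against 2.999% and 3.16% of macrophages. Without thinning the shares were 51.1% and 63.3% of neutrophils, and thinned T, NK and B cells gave 1.16% and 2.22%. Neutrophils held 65.0% of the Csf1 UMIs of all retained cells in 4T1P and 71.5% in 4T1M. Macrophages held 22.1% and 6.17%, and the ungated further cells 11.2% and 19.7%. These shares follow the number of cells of each class as well as the level per cell, and the bead selection and the gates set those numbers.

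Csf1 differed among neutrophils by the genes they expressed beside it. Cells were put in a state where the summed UMIs of a short gene list exceeded the expectation of that class, and counted in the state furthest above. Cells high in interferon-stimulated genes such as Ifit1 and Isg15 had 784 CPM of Csf1 in 4T1P and 874 CPM in 4T1M, the highest of the states read. Cells high in Il1a, Tnf and Ccl3 had 605 and 700 CPM, and cells in no state 687 and 753 CPM. Cells high in Retnlg, Prok2 and Wfdc17 had 203 and 264 CPM, and cells high in granule genes such as Camp and Ltf, which mark immature neutrophils, had 180 CPM in 4T1M (only 19 such cells were found in 4T1P). The Poisson intervals of the Retnlg cells (173 to 237 and 237 to 293 CPM) lay below those of the interferon cells (666 to 917 and 810 to 943 CPM) in both libraries. This order is by CPM. Granule-gene cells of 4T1M were deep, with a median of 12223 UMIs against 2422 in cells in no state. Per cell they held more Csf1 than cells in no state, with 124 UMIs in 49 cells against 1651 in 702. Among macrophages, Csf1 was low in Cx3cr1 and Vcam1 cells (7.88 and 10.5 CPM) and higher in cells of the Arg1 and Mmp12 group (68.0 and 42.8 CPM).

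**Figure D2:**
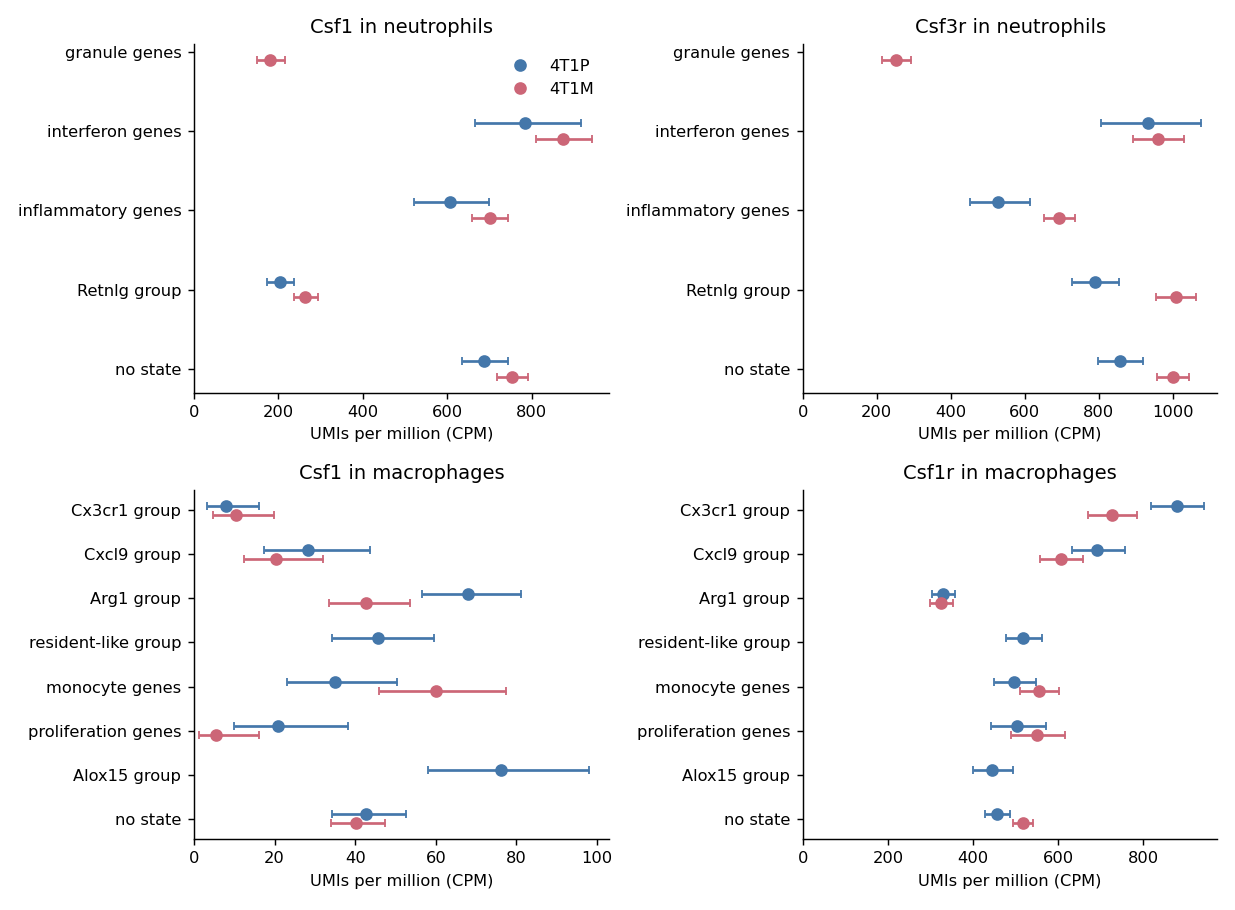
Csf1 and Csf3r by state of neutrophils and Csf1 and Csf1r by state of macrophages, in CPM on linear axes, for 4T1P (blue) and 4T1M (red); points are sums over the cells of a state, bars are 95% Poisson intervals, and only states with at least 30 cells in a library are drawn. By CPM, Csf1 in neutrophils is lowest in granule and Retnlg cells and highest in interferon cells, and Csf1r in macrophages is highest in Cx3cr1 cells and lowest in Arg1 cells.

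Csf1r, the receptor for CSF1, showed the reverse placement. In macrophages it stood at 507 CPM in 4T1P (492 to 522, 4412 UMIs) and 517 CPM in 4T1M (502 to 532, 4762 UMIs). In neutrophils it stood at 33.6 CPM (26.8 to 41.6, 84 UMIs) and 55.0 CPM (49.5 to 61.0, 362 UMIs). Macrophages were 15.1-fold higher in 4T1P and 9.39-fold higher in 4T1M, and they held 92.9% and 83.9% of all Csf1r UMIs of retained cells. After thinning, 32.6% and 31.8% of macrophages had a Csf1r UMI, against 2.29% and 4.22% of neutrophils and 0 of 86 and 0 of 90 T, NK and B cells. With 3 cells taken as the limit that a count of 0 allows, that is a share of up to 3.49% and 3.33% with a UMI at this depth. Without thinning the shares were 73.3% and 73.2% of macrophages and 11.8% and 13.7% of neutrophils, and 3 of 86 and 4 of 91 T, NK and B cells had a Csf1r UMI. Among macrophage states with at least 30 cells, Csf1r was the highest in those rich in Cx3cr1, Vcam1, Ms4a7 and Trem2 (878 CPM in 4T1P and 726 CPM in 4T1M) and the lowest in those of the Arg1 group (330 and 324 CPM), with monocyte-gene cells between (497 and 555 CPM). The Arg1 group thus had the lowest receptor level and a high ligand level, and the Cx3cr1 group the opposite, among the states with enough cells in both libraries. Other states of 4T1M did not follow this pattern. Monocyte-gene cells there had the highest Csf1 of these states (60.1 CPM) beside 555 CPM of Csf1r. Cells high in proliferation genes had the lowest Csf1 (5.48 CPM, 3 UMIs) beside 550 CPM of Csf1r.

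Csf1 and Csf1r were seldom read in the same cell. After thinning, both were found in 6 of 612 neutrophils of 4T1P and in 33 of 1682 in 4T1M, and in 8 of 767 and 3 of 918 macrophages. Csf1r was detected in 3.21% of neutrophils with Csf1 and 1.88% of those without it in 4T1P, and in 5.26% and 3.60% in 4T1M, with binomial intervals that overlapped in each library. Csf3r was detected in 58.8% of neutrophils with Csf1 and 48.7% of those without it in 4T1P, and in 54.7% and 55.4% in 4T1M, again with overlapping intervals and in opposite directions. In macrophages, Csf1r was detected in 34.8% of the 23 cells with Csf1 and 32.5% of those without it in 4T1P. In 4T1M it was detected in 10.3% of the 29 with Csf1 and 32.5% of the others, and the intervals overlapped in 4T1P only. Csf3r was detected in 13.04% of macrophages with Csf1 and 2.15% of those without it in 4T1P, with 3 cells holding both. In 4T1M the shares were 31.03% (15.3% to 50.8%) and 4.499% (3.23% to 6.08%), with 9 cells holding both. These intervals also overlapped in 4T1P only. The part of neutrophil RNA or of doublets in the Csf1 of macrophages was not tested.

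Csf3r, the G-CSF receptor, was read mostly in neutrophils, at 712 CPM in 4T1P (679 to 745, 1781 UMIs) and 846 CPM in 4T1M (824 to 868, 5564 UMIs). In macrophages it stood at 29.99 CPM (26.5 to 33.9, 261 UMIs) and 55.3 CPM (50.6 to 60.4, 510 UMIs). Neutrophils were 23.7-fold and 15.3-fold higher and held 78.0% and 77.3% of all Csf3r UMIs. Thinned to 1000 UMIs, 51.8% and 55.1% of neutrophils had a Csf3r UMI against 2.48% and 5.34% of macrophages, and without thinning 79.7% and 84.4% against 21.7% and 28.6%. Within neutrophils its order by state differed from that of Csf1. By CPM, Csf3r was low in granule-gene cells (252 CPM in 4T1M) and in the inflammatory cells (528 and 693 CPM). It was higher than in those in the Retnlg cells (790 and 1008 CPM), where Csf1 was low. Cells with interferon genes had 934 and 960 CPM and cells in no state 856 and 1000 CPM. The Retnlg cells thus lay below both of these groups in 4T1P but not in 4T1M. Counted per cell, Csf3r was not low in granule-gene cells of 4T1M. They held 173 UMIs in 49 cells, against 1085 in 409 inflammatory cells and 2193 in 702 cells in no state.

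Csf2ra, Csf2rb and Csf2rb2, which encode chains of the GM-CSF and IL-3 receptors, differed by less than 1.5 fold between the classes by CPM. Csf2ra stood at 148 and 130 CPM in neutrophils and 105 and 119 CPM in macrophages. Csf2rb stood at 290 and 303 CPM in neutrophils and 212 and 238 CPM in macrophages. Csf2rb2 stood at 53.1 and 70.5 CPM in neutrophils and 70.7 and 82.8 CPM in macrophages. The direction depended on the scale: Csf2rb2 was lower in neutrophils by CPM (log2 ratio -0.41 and -0.23) but higher under TMM scaling (0.27 and 0.50), under DESeq2 scaling (0.39 and 0.60) and as a mean over cells (0.025 and 0.19). DESeq2 scaling put Csf2ra (1.30 and 0.96) and Csf2rb (1.25 and 1.18) past 1.5 fold higher in neutrophils. TMM scaling also put both genes past 1.5 fold higher in neutrophils of both libraries. A mean over cells did so for Csf2rb in both libraries and for Csf2ra in 4T1P only. In UMIs per cell the order was the other way. For Csf2ra, 60.5 and 50.8 UMIs were counted per 100 neutrophils against 115 and 115 per 100 macrophages, and for Csf2rb 118 and 118 against 233 and 230. Csf2rb was detected in 24.7% and 24.6% of thinned neutrophils and 14.7% and 16.2% of thinned macrophages, against 0 of 86 and 1 of 90 T, NK and B cells. Without thinning the shares were 55.7% and 55.8% against 61.2% and 64.8%. Among macrophages, Csf2rb was the highest in monocyte-gene cells (288 and 331 CPM) among states with at least 30 cells and was 143 CPM in the resident-like cells of 4T1P. Csf2rb and Csf2rb2 are neighbors on chromosome 15, 20031 bases apart on opposite strands. Of the 31-base words of the Csf2rb transcript, 28.0% also occur in Csf2rb2, but 1.28% of those in the last 500 bases, so reads away from the 3′ end can be hard to assign to either gene.

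The partner genes had few UMIs among retained cells. Csf2 had 3 and 2 UMIs in neutrophils and 33 and 6 UMIs in macrophages, where the 33 UMIs of 4T1P came from 6 of 793 cells. The further cells outside the gates held 0 Csf2 UMIs in 4T1P and 20 in 4T1M (7.86 CPM), which were 71.4% of the 28 of that library. Csf3 had 26 and 63 UMIs in neutrophils (10.4 and 9.57 CPM) and 42 and 35 UMIs in macrophages (4.83 and 3.80 CPM), and the further cells held 2 and 23 (1.84 and 9.04 CPM). Il34, the other ligand of Csf1r, had 0 UMIs in both classes of both libraries, as had Il3 and Il5, and its 5 and 1 UMIs were all in the further cells. A count of 0, with 3 UMIs as its limit, allows up to 1.20 and 0.456 CPM in neutrophils and 0.345 and 0.326 CPM in macrophages. Il3ra, the alpha chain of the IL-3 receptor, had 4 and 12 UMIs in neutrophils (1.60 and 1.82 CPM) and 99 and 128 UMIs in macrophages (11.4 and 13.9 CPM). By CPM it was 7.12-fold and 7.62-fold higher in macrophages. Of the factor genes Csf1, Csf2, Csf3, Il34, Il3 and Il5, Csf1 had the highest level in neutrophils and in macrophages of each library.

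Between the libraries, the genes differed by little within a class. Past 1.5 fold higher in 4T1M were 1 of 6 in neutrophils (Csf1r) and 1 of 6 in macrophages (Csf3r), against 14.3% of 9994 genes in neutrophils and 7.43% of 12338 genes in macrophages. Past 1.5 fold lower were 0 of 6 in either class, against 9.93% and 7.92% of all genes. With 6 genes, a count of 0 or 1 is too small to be told apart from these shares. The background takes in genes from 10 UMIs up, and the 6 genes had more. Csf1r in neutrophils had the fewest of them, 84 and 362 UMIs. The median log2 ratio of the 6 genes was 0.32 in neutrophils and 0.18 in macrophages, against 0.03 and -0.03 over all genes.

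**Figure D3:**
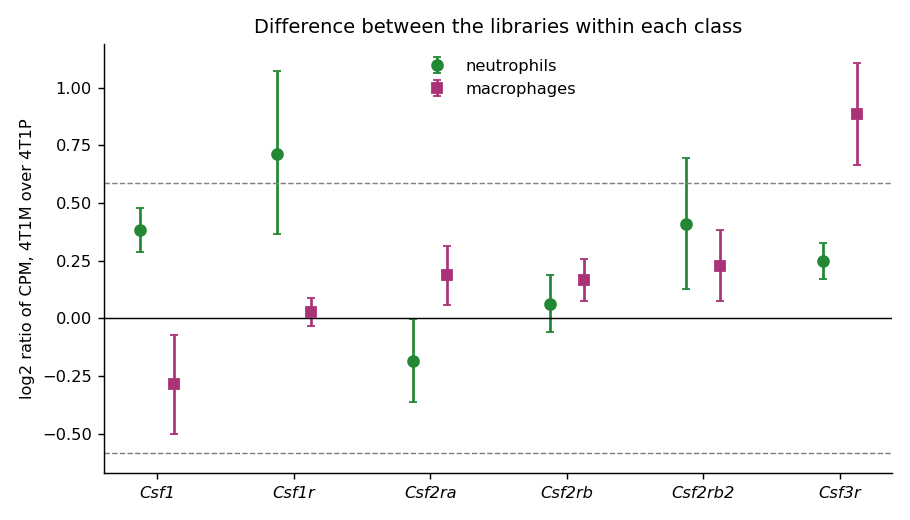
Log2 ratio of CPM of 4T1M over 4T1P for each gene within neutrophils (circles) and macrophages (squares), with exact conditional 95% intervals for counting error; dashed lines mark 1.5 fold. Csf1r in neutrophils (0.71) and Csf3r in macrophages (0.88) lie past the line, and Csf1 lies above 0 in neutrophils (0.38) and below 0 in macrophages (-0.29).

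In neutrophils, Csf1 was higher in 4T1M by a log2 ratio of 0.38 (0.29 to 0.48). It was also above 0 in each of 4 neutrophil states (0.13 to 0.38), with the interval above 0 in 1 of them, the Retnlg cells. The Retnlg cells, low in Csf1, were 24.5% of neutrophils in 4T1P and 18.1% in 4T1M, and the inflammatory cells 13.6% and 24.3%. Csf3r was higher by 0.25 (0.17 to 0.33), with the interval above 0 in 3 of 4 states. Csf2rb2 was higher by 0.41 (0.13 to 0.70), Csf2rb differed by 0.06 (-0.06 to 0.19), and Csf2ra was at -0.18 (-0.36 to -0.0045).

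In macrophages, Csf1r differed by 0.03 (-0.03 to 0.09), an interval that includes 0. Csf1 was at -0.29 (-0.50 to -0.07) over all macrophages, but at 0.012 as a mean over cells. By state it was at -0.67 in the Arg1 group (-1.11 to -0.24) and 0.78 in monocyte-gene cells (0.11 to 1.49). Csf2ra was at 0.19 (0.06 to 0.31), Csf2rb at 0.17 (0.08 to 0.26) and Csf2rb2 at 0.23 (0.07 to 0.38).

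The Csf1r difference in neutrophils depended on the cells with the most UMIs. It was 0.71 (0.37 to 1.07) over all neutrophils and 0.24 (-0.14 to 0.64) without the 5% of cells with the most UMIs. In those cells Csf1r stood at 21.3 CPM in 4T1P (31 cells) and 103 CPM in 4T1M (85 cells), and in the other cells at 36.7 and 43.4 CPM. By state, the log2 ratio had its interval above 0 in 3 of 4 groups of neutrophils, the interferon cells (1.54, 0.087 to 3.48, from 4 and 45 UMIs), the inflammatory cells (1.20, 0.16 to 2.45) and the cells in no state (0.70, 0.21 to 1.21), and it was at -0.30 (-1.03 to 0.45) in the Retnlg cells. The summed level of Mrc1, Adgre1, Ms4a7, Trem2 and Cx3cr1, macrophage markers that the gate did not use, was 27.2 and 60.1 CPM in the cells with the most UMIs and 31.2 and 26.0 CPM in the others. Csf1r in neutrophils was 6.62% and 10.6% of its macrophage level, while these 5 markers ranged from 1.19% to 3.91% in 4T1P and from 1.63% to 4.59% in 4T1M. The part of doublets and of free RNA was not tested.

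The Csf3r difference in macrophages was 0.88 (0.67 to 1.10) and stayed between 0.88 and 1.05 under each of the 6 alternatives run. It was above 0 in 5 of 6 macrophage states and at -0.61 (-1.28 to 0.03) in the Arg1 group. Of 8 neutrophil genes read in macrophages, Mmp9 was lower in 4T1M (56.2 and 16.5 CPM) and the other 7 were higher. S100a8 stood at 238 CPM in 4T1P and 464 CPM in 4T1M, Retnlg at 26.4 and 37.9 CPM, Cxcr2 at 2.53 and 7.81 CPM, Hdc at 17.9 and 28.3 CPM and G0s2 at 40.8 and 80.5 CPM. Csf3r in macrophages was 4.21% and 6.55% of its neutrophil level, above the share of each of the genes just named except Mmp9 in 4T1P (0.354% to 1.32% in 4T1P and 0.686% to 2.21% in 4T1M for the others). S100a8 is a gate gene, so the gate itself capped its level in macrophages. Mmp9 stood at 14.6% and 4.97% and Cxcl2 at 33.3% and 27.8%. The part of neutrophil RNA in the result was not tested, and 4T1M also held more neutrophils per macrophage.

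**Figure D4:**
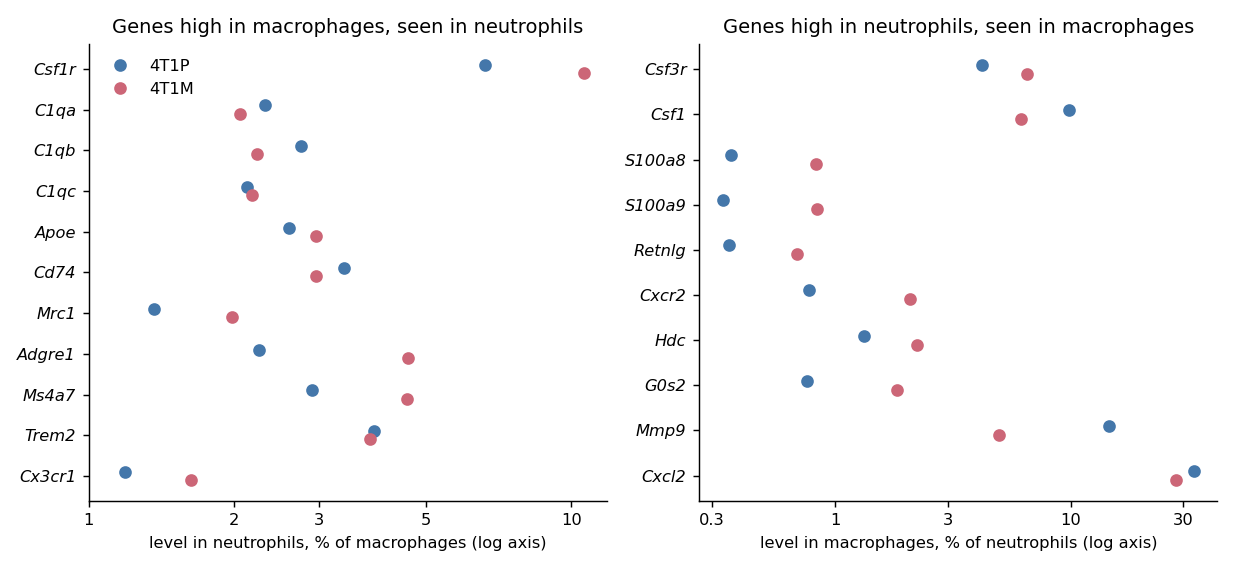
Level of each gene in the class where it is low, as a percentage of its level in the class where it is high (log axis), for 4T1P (blue) and 4T1M (red). Csf1r in neutrophils (6.62% and 10.6%) lies above the macrophage markers, and Csf3r in macrophages (4.21% and 6.55%) above S100a8, S100a9, Retnlg, Cxcr2, Hdc and G0s2 but, in 4T1P, below Mmp9 and, in both libraries, below Cxcl2. S100a8 and S100a9 in macrophages, and C1qa, C1qb, C1qc and Apoe in neutrophils, are gate genes whose levels the gates themselves cap.

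Downstream of these receptors, most listed genes differed by less than 1.5 fold between the libraries. Of 18 signalling genes in neutrophils, 2 were past 1.5 fold higher in 4T1M and 1 lower, against 14.3% and 9.93% of all genes. Jak2, among the kinases of the GM-CSF and G-CSF receptors, stood at 98.7 CPM in 4T1P and 173 CPM in 4T1M (log2 ratio 0.81, 0.61 to 1.02). The adaptor Gab2 stood at 45.5 and 71.9 CPM. Dok2, a negative adaptor of myeloid kinases, stood at 28.0 and 16.6 CPM. In macrophages Jak2 was also past 1.5 fold higher (0.66, 0.50 to 0.82) and Dok2 lower (-0.59, -0.73 to -0.46), and the other 16 were not past it, against 7.43% higher and 7.92% lower of all genes.

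Of 9 feedback and induced genes with enough UMIs in neutrophils, 3 were past 1.5 fold higher in 4T1M and 0 lower, against 14.3% and 9.93% of all genes, and the interval of 1 of the 3 (Socs2) included 0. Cish, a STAT5 target that dampens cytokine receptors, was at 12.8 CPM in 4T1P and 40.7 CPM in 4T1M (1.67, 1.14 to 2.25). Ccl2, which attracts monocytes, was at 97.5 and 189 CPM (0.95, 0.75 to 1.16). Socs2, another STAT5 target, had 3 and 23 UMIs (1.54, -0.18 to 3.92). Socs3, the feedback inhibitor of the G-CSF receptor, was at 374 and 316 CPM (-0.24), and Pim1 at 2830 and 3174 CPM (0.17). In macrophages 0 of 10 were past 1.5 fold, with Cish at 20.8 and 28.9 CPM. Among the listed transcription factors, Cebpa, a C/EBP factor of granulocyte development, was past 1.5 fold higher in neutrophils of 4T1M (6.39 and 11.1 CPM), with a log2 ratio of 0.80 (0.00074 to 1.68). Cebpe, a factor of late granulocyte maturation, was past 1.5 fold lower in macrophages (4.37 and 2.39 CPM).

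The genes whose levels ran most like each member were sought over 23 profiles of states and libraries among 4620 genes, as a description across profiles that share libraries. Csf1r ran with Plekho1 (Pearson r 0.99), Apoe, which is a gate gene, and Ctsc. Csf3r ran with Ypel3 (0.99), Mxd1 and Sh2d3c, and Csf1 with Eif1 (0.97), Iqsec1 and Npepps. The likeness was weaker for Csf2rb (Chd7, 0.92), Csf2rb2 (Ptpre, 0.80) and Csf2ra (Neurl3, 0.77), which differed little between the classes by CPM. The profiles take in states of both classes, so r also follows the size of the class difference.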

How the data were processed

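10x Genomics libraries of GR1+ cells were analysed, 1 for 4T1P and 1 for 4T1M. The values that the authors deposited are UMI counts of each gene in each barcode, not normalized, for 2947 barcodes (21855657 UMIs) and 5004 barcodes (24303957 UMIs). The submitters' processing notes name Cell Ranger 4.0.0 and mm10, and the methods name a later Cell Ranger version. The filters on genes and mitochondrial UMIs were those of the methods, but more cells passed them here than the methods give (5187). No doublets were removed, as in the methods. No trajectory or clustering was made, and classes came from the stated limits.

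UMIs were summed per class and library with Python 3.11.15, numpy 2.4.6, pandas 2.3.3 and scipy 1.17.1. CPM have exact Poisson intervals, shares of cells exact Clopper-Pearson intervals, and log2 ratios exact conditional binomial intervals, all at 95%. Beside a count of 0 the limit is 3 counts, which is lower than the upper bound of those intervals. No p-value was computed. Counts of genes past a fold used genes with at least 10 UMIs in both groups together. Shares of cells were thinned to 1000 UMIs with a fixed seed, which left out 26 and 37 macrophages and 0 and 4 neutrophils. States needed at least 3 UMIs and a Poisson z of at least 3 over the class expectation, and 61 and 202 neutrophils and 157 and 203 macrophages lay near that limit. edgeR 4.0.16 and DESeq2 1.42.0 in R 4.3.3 gave alternative scaling only. Ratios and intervals were tested on simulated data. The alternatives were other scalings, a 5% mitochondrial limit, stricter gates, leaving out the 5% of cells with the most UMIs and a mean over cells.

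The members and gene lists were chosen with earlier results of these data known. Genes named are the 6 members, gate and marker genes, listed pathway genes with up to 4 highest and lowest ratios per list, and the 3 genes most alike to a member (log2 of CPM plus 10, genes of at least 50 CPM). Transcripts were read, not secreted protein. Flow cytometry, CyTOF and human data were not analysed here. Not every gene of the lists is reported here.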

Additional observations from a re-analysis of the deposited data

Results flagged for a closer look

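Csf1 and Csf2ra went opposite ways between the libraries in the 2 classes. For Csf1 the log2 ratio of 4T1M over 4T1P was 0.38 in neutrophils and -0.29 in macrophages. The value in macrophages changed sign as a mean over cells, and was 0.78 in monocyte-gene cells. For Csf2ra the log2 ratio was -0.18 in neutrophils (-0.36 to -0.0045) and 0.19 in macrophages. With 1 library per line the difference between the classes was not tested.

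The barcodes outside the cell filter (1221 in 4T1P and 1543 in 4T1M) also held UMIs of these genes, above what a count of 0 allows. Their levels in 4T1P and 4T1M were 102 and 183 CPM for Csf1, 277 and 201 CPM for Csf1r, 74.3 and 86.0 CPM for Csf2ra, 138 and 191 CPM for Csf2rb, 33.3 and 45.8 CPM for Csf2rb2, and 86.4 and 231 CPM for Csf3r. Csf2 was at 4.38 and 11.2 CPM and Csf3 at 57.5 and 12.6 CPM. For Csf3 in 4T1P this is above the 10.4 CPM of neutrophils and the 4.83 CPM of macrophages.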

How the results depend on the processing

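Of 72 recomputed log2 ratios between the libraries, 60 stayed within the counting interval of the value given, 11 lay outside it and 1 changed sign. Of 72 log2 ratios of neutrophils over macrophages, 26 stayed within it, 40 lay outside it and 6, all of Csf2rb2, changed sign. Changes of sign were counted only where both ends of the interval of the value given had the same sign. Csf2rb in neutrophils, which also changed sign between the libraries as a mean over cells, is thus among the 11. The cause was not tested beyond the construction of each alternative, and TMM and DESeq2 scaling move every gene of a comparison by 1 amount. No paired analysis was possible because each line has 1 library.

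Pairs below are 4T1P and 4T1M, and ratios are neutrophils over macrophages unless named otherwise. TMM scaling gave 4.03 and 4.76 for Csf1, -3.23 and -2.50 for Csf1r, 1.18 and 0.86 for Csf2ra, 1.13 and 1.08 for Csf2rb, 0.27 and 0.50 for Csf2rb2, and 5.25 and 4.67 for Csf3r. DESeq2 scaling gave 4.15 and 4.86 for Csf1, -3.11 and -2.40 for Csf1r, 1.30 and 0.96 for Csf2ra, 1.25 and 1.18 for Csf2rb, 0.39 and 0.60 for Csf2rb2, and 5.37 and 4.77 for Csf3r. A mitochondrial limit of 5% gave 2.89 and 3.67 for Csf1, -3.52 and -3.03 for Csf1r, 0.31 for Csf2ra in 4T1M, and 0.30 for Csf2rb and 4.80 for Csf3r in 4T1P. With that limit the ratios of 4T1M over 4T1P were 0.48 for Csf1 in neutrophils, and 0.13 for Csf1r, 0.069 for Csf2rb and 0.059 for Csf2rb2 in macrophages. Stricter gates gave 4.36 for Csf1 and -3.76 for Csf1r in 4T1M, and -0.53 for Csf1 in macrophages, 4T1M over 4T1P. Without the 5% of cells with the most UMIs, the values were 3.69 for Csf1 and 0.63 for Csf2rb in 4T1P, -3.58 for Csf1r in 4T1M, and 4.78 and 4.08 for Csf3r. There, 4T1M over 4T1P in neutrophils was 0.27 for Csf1 and 0.24 for Csf1r. A mean over cells gave 3.72 for Csf1 and -3.51 for Csf1r in 4T1P, 0.94 and 0.48 for Csf2ra, 0.99 and 0.60 for Csf2rb, and 0.025 and 0.19 for Csf2rb2. There, 4T1M over 4T1P was 0.33 for Csf1r, -0.11 for Csf2rb and 0.16 for Csf3r in neutrophils, and 0.012 for Csf1 and 0.28 for Csf2rb in macrophages.

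With no minimum of UMIs, 2755 genes were past 1.5 fold higher in 4T1M and 3393 lower in neutrophils, against 1426 and 992 with it. In macrophages they were 3002 and 3094, against 917 and 977. Of 48 recomputed shares of cells with a UMI, 27 moved outside their interval, and of 24 shares of UMIs held under stricter gates, 24 did, since those gates hold fewer cells.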

Other observations

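Csf3, the gene of G-CSF, was also read in barcodes above 5000 detected genes, where 4T1P had more of its UMIs than in all retained cells and 4T1M had fewer. In 4T1P, 483 Csf3 UMIs (85.5 CPM) came from 39 of 136 such barcodes, with 379 in the 10 highest and 162 in 1 barcode, against 70 UMIs in retained cells. In 4T1M, 52 UMIs (26.1 CPM) came from 11 of 49, against 121 in retained cells. Genes of the tumor or epithelial marker list summed to 1445 and 1714 CPM in these barcodes, against 76.3 and 18.4 CPM in neutrophils and 31.1 and 36.03 CPM in macrophages. The fibroblast marker list summed to 283 CPM in these barcodes of 4T1P and 2.51 CPM in those of 4T1M. In neutrophils that list stood at 3.20 and 1.22 CPM and in macrophages at 1.72 and 1.19 CPM. Which kind of cell held the Csf3 transcripts of these barcodes was not tested. Il34 was also read in the barcodes above 5000 genes of 4T1P (29 UMIs in 17 barcodes), where neutrophils and macrophages had 0. Csf2 in the barcodes of 4T1M came from 3 of 49, with 43 of 48 UMIs in 1 barcode.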
